A study of Homo sapiens with 6 samples.

Results

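Cellular iron export depends on ferroxidases, copper-containing enzymes that oxidise ferrous iron so that transferrin can take it up. Hephaestin (HEPH) is a membrane-bound ferroxidase best known from the gut epithelium, where it acts with the iron exporter ferroportin (SLC40A1). Its paralogue hephaestin-like 1 (HEPHL1, also called zyklopen) and ceruloplasmin (CP), the copper-binding ferroxidase of plasma, catalyse the same reaction. Iron enters cells through the transferrin receptor (TFRC) and the divalent metal transporter SLC11A2. It is stored in ferritin, built from the subunits FTH1 and FTL, and is sensed by the iron regulatory proteins ACO1 and IREB2. The expression of these 10 genes was looked up in SUM159 breast cancer cells with and without silenced spinophilin. Only HEPH, HEPHL1 and CP, 3 of the 10, had a named transcript cluster in the array annotation used here, out of 14884 named genes. SLC40A1, SLC11A2, TFRC, FTH1, FTL, IREB2 and ACO1 were not analysed here. HEPH had been chosen because it was lower in the silenced cells in this same comparison, so its values are given as a description without a test. HEPHL1 and CP had been listed for their function, with earlier results of these data known.

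SUM159 served the study as its basal-like model. Spinophilin, encoded by PPP1R9B, is a scaffold protein that targets protein phosphatase 1. Silenced cells stably carried a lentiviral shRNA of 1 sequence against spinophilin. Control cells carried a scrambled shRNA, and both kinds of cells were selected with puromycin. Each group holds 3 arrays (Affymetrix Human Gene 2.0 ST), labelled 1, 2 and 2d. The study describes them as independent biological replicates. What the letter d stands for, and whether each replicate was transduced separately, is not stated in the sources used here, and p-values measure the spread between these 3 samples of each transduced line. Expression is given as log2 values per transcript cluster, the unit into which the array combines probes along a transcript, after robust multi-chip average normalization (RMA). The quantile normalization within RMA gives the probe signals of every array the same distribution before they are combined, so all differences are relative to the other transcripts. In such bulk RNA, fewer cells that express a gene and less RNA per cell cannot be told apart.

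The arrays had medians between 5.19 and 5.23, and the difference between 2 arrays of a group had an SD of 0.267 to 0.306 over all 53617 transcript clusters. Of 10 measured markers of basal or mesenchymal-like cells, 9 lay above the array median on every array, VIM (vimentin) among them, and TWIST1 did not. Of 12 luminal markers, 5 lay above it on every array (GATA3, KRT19, SPDEF, MLPH and XBP1). The oestrogen receptor gene ESR1 lay above only 28.7% to 35.5% of transcript clusters and the progesterone receptor gene PGR above 20.8% to 24.9%. None of these markers passed the limma test between the groups (smallest adjusted p = 0.797), and none did in the unmoderated test or at an unadjusted p under 0.05. Over all transcript clusters, 7.39% had an unadjusted limma p under 0.05. Spinophilin itself was not analysed here, so the arrays give no check of the silencing. The study reported lower spinophilin protein in the silenced cells by Western blot. Groups were compared with moderated variances in limma, with Benjamini-Hochberg adjustment across the whole array.

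The single HEPH transcript cluster of the array stands for all HEPH transcripts together, while RefSeq lists 3 separate windows for the gene's transcription starts. The 100 bases before each of these starts are shown because HEPH is the member that differed between non-overlapping groups and its 1 array value cannot be divided among them. They lie on the plus strand of chromosome X in GRCh38.p14, at chrX:66162571-66162670, chrX:66164147-66164246 and chrX:66167650-66167749. Sequences are from RefSeq, written 5′ to 3′ and in the order of the starts along the chromosome, and capitals mark the core motif of the CDX homeobox factors.
HEPH start 1: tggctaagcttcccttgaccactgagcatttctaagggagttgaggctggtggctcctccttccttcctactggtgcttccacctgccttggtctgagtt
HEPH start 2: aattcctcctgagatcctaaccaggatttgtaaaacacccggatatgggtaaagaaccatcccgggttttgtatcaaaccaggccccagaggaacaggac
HEPH start 3: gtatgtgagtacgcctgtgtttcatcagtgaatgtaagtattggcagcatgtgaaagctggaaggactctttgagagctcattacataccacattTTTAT

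Core motifs of factors known for iron, metal and oxygen responses were searched on both strands of the windows from 250 bases before to 50 bases after each start. The windows of HEPH (3) and HEPHL1 (1) held no match to the hypoxia response core ACGTG, the antioxidant response core TGACNNNGC or the metal response cores TGCACNC and TGCGCNC. Of 35116 windows in the RefSeq table, 21.4%, 13.3%, 12.1% and 20.0% held these motifs in the same order. The CDX core TTTAT, or its reverse complement, was found at start 1 (position -219, counted from the first base before the start as -1), at start 3 (position -5, shown above in capitals) and at HEPHL1 (position -198), and in 34.9% of all windows. No 2 motifs overlapped in these windows, and CP has no window in the table. These matches describe letters only and say nothing about binding or about the difference in expression.

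HEPH expression was lower in every silenced array than in every control array. Control arrays 1, 2 and 2d held 5.66, 5.53 and 5.56, and silenced arrays 1, 2 and 2d held 4.81, 4.73 and 4.92 (log2 expression). The groups did not overlap, and a gap of 0.61 separated the lowest control array from the highest silenced array. Within a group the arrays spanned 0.13 in the control cells and 0.19 in the silenced cells. The means were 5.58 ± 0.068 and 4.82 ± 0.097 (SD, n = 3 each). The difference of silenced against control was -0.76 on the log2 scale, which is a 1.69-fold higher level in the control cells. Over the 9 possible pairs of a silenced and a control array, the difference ranged from -0.93 to -0.61. HEPH lay above 57.2% to 60.2% of all transcript clusters on the control arrays and above 40.0% to 43.4% on the silenced arrays. Its signal thus passed from above to below the array median. Whether the signal on the silenced arrays exceeded background is not known, since RMA gives no detection call. Ordered by the size of the lower values in silenced cells, HEPH was 13th of 14884 named genes and 11th of 11916 protein-coding genes. Of all transcript clusters, 6.27% had silenced arrays that all lay below the control arrays (and 6.43% above them), and 0.0354% were lower at an adjusted p under 0.05. Nothing is read from these shares for HEPH, since this comparison chose it.

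**Figure D1:**
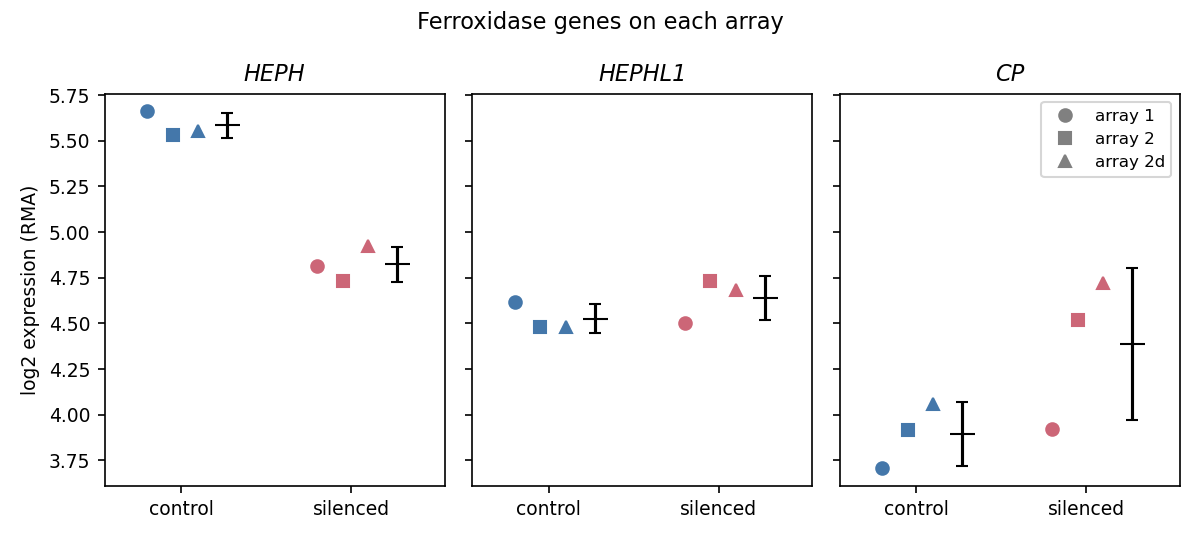
Log2 expression (RMA, vertical axis) of HEPH, HEPHL1 and CP on the 3 control arrays (blue) and the 3 silenced arrays (red), where the point shape gives the array label and the black bar the mean ± SD. For HEPH the silenced arrays, at 4.73 to 4.92, all lie below the control arrays, at 5.53 to 5.66, while the groups overlap for HEPHL1 and CP.

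HEPHL1, the paralogue of HEPH, gave no such pattern. Control arrays 1, 2 and 2d held 4.62, 4.48 and 4.48, and silenced arrays 1, 2 and 2d held 4.50, 4.73 and 4.68. Silenced array 1 lay among the control arrays, and the groups overlapped. The means were 4.52 ± 0.079 and 4.64 ± 0.12 (SD, n = 3 each), with a difference of 0.12 (95% confidence interval -0.11 to 0.34, adjusted p = 0.871 from limma). This interval holds no lower value in silenced cells of the size seen for HEPH. The gene lay above 35.2% to 40.0% of transcript clusters on all 6 arrays. RMA gives no detection call, so it is not known whether this signal exceeded background or could have fallen by as much as that of HEPH.

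CP, the ferroxidase that liver secretes into plasma and that other cells hold as a membrane-anchored form, had higher mean values in the silenced cells but also the widest spread of the 3 genes. Control arrays 1, 2 and 2d held 3.71, 3.92 and 4.06, and silenced arrays 1, 2 and 2d held 3.92, 4.52 and 4.72. Silenced arrays 2 and 2d lay above all control arrays, whereas silenced array 1 lay below control array 2d. The means were 3.89 ± 0.18 and 4.39 ± 0.42 (SD, n = 3 each), with a difference of 0.49 (95% confidence interval 0.00 to 0.98). The unadjusted limma p was 0.0495 and the adjusted p = 0.675 from limma, so CP did not pass. The difference was 0.73 without silenced array 1 (adjusted p = 0.270 from limma) and 0.33 without silenced array 2d (adjusted p = 0.816 from limma). On the control arrays CP lay above only 22.7% to 27.8% of transcript clusters, near the lower quartile of each array (3.85 to 3.90), and on the silenced arrays above 26.1% to 39.3%. Of the tested members HEPHL1 and CP, 0 of 2 passed in limma or in the unmoderated test, and 1 had an unadjusted p under 0.05. An unadjusted limma p under 0.05 was found for 7.39% of all transcript clusters. In the same limma test 0.205% of all transcript clusters passed, 0.17% higher and 0.0354% lower. The 19 lower transcript clusters behind the last share became 0 to 13 when 1 array was left out, 13 of them without silenced array 2d and at most 3 without any other array.

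The other measured genes of iron and copper handling were taken from 8 lists of 142 genes in all, of which 94 had a named transcript cluster. Of these 94, 1 gene was lower and 0 were higher at an adjusted p under 0.05 from limma. That is 1.06% against 0.205% of all transcript clusters. Nothing is read from this share, since the gene, NEO1, was listed with its fall known. At an unadjusted p under 0.05 there were 6 (6.38%), against 7.39% of all transcript clusters, and the unmoderated test passed 0 at the adjusted threshold. The median difference over the 94 genes was -0.04, against -0.00 over all transcript clusters, with 37 genes above 0 and 57 below. The groups did not overlap for 13 genes (13.8%), 6 higher and 7 lower, against 12.7% of all transcript clusters. By list these were 4 of 10 genes of iron uptake, 1 of 7 of storage and chaperones (PCBP4, lower) and 1 of 12 of iron sensing (NEO1). In haem there was 1 of 17 (the haem exporter FLVCR1, higher), and in mitochondrial iron and iron-sulphur clusters 0 of 21. Of copper there were 4 of 20 (MT1X, TYR and ATOX1 lower, SCO1 higher). The list of lipid peroxide formation and defence gave 2 of 7 (GCH1 and ACSL4, higher). The list of clotting factors related to ceruloplasmin (F5 and F8) had no measured member.

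The gene that passed was NEO1, which encodes neogenin, a receptor for netrins and for repulsive guidance molecules that also binds hemojuvelin, a regulator of the iron hormone hepcidin. NEO1 fell from 7.55 ± 0.17 to 6.29 ± 0.11 (SD, n = 3 each), a difference of -1.26 (adjusted p = 0.0178 and a standard error of 0.11 from limma). Its fall was known when the list was written. It did not pass without control array 1 or 2 (adjusted p = 0.0832 and 0.0621 from limma) or without silenced array 1 or 2 (adjusted p = 0.0732 and 0.0906 from limma), at differences of -1.33 to -1.21. The study itself named NEO1 among its down-regulated genes and listed qRT-PCR primers for it. Its qRT-PCR was reported to match the arrays for every gene checked. Among the other 11 of 12 measured genes of iron sensing and hepcidin control, none passed. KEAP1, the repressor of the antioxidant factor NRF2, had a difference of -0.27, and the ligands BMP6 and BMP2 had differences of -0.13 and -0.12. Hepcidin itself (HAMP) differed by -0.00 and hemojuvelin (HJV) by -0.06. FBXL5, the ubiquitin ligase subunit that degrades iron regulatory protein 2 when iron is ample, differed by 0.02 (standard error 0.084, adjusted p = 0.987 from limma).

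Of 10 measured genes of iron uptake and iron reduction, none passed (smallest adjusted p = 0.339 from limma), and 3 lay above 0 with 7 below. At an unadjusted limma p under 0.05 there were 2 (20%), against 7.39% of all transcript clusters. STEAP1, of a family of metalloreductases, held 7.79, 7.66 and 7.79 in the control arrays 1, 2 and 2d, and 6.92, 7.18 and 7.45 in the silenced arrays. The silenced arrays all lay below the control arrays and spread more widely than these, with a difference of -0.56 (adjusted p = 0.339 and a standard error of 0.14 from limma). Lactoferrin (LTF), an iron-binding secreted protein, had a difference of -0.38 with groups that did not overlap (adjusted p = 0.410 from limma). Transferrin (TF), the iron carrier of plasma, had a difference of 0.18 in the other direction, also without overlap (adjusted p = 0.767 from limma). The control and silenced means of LTF (5.05 and 4.68) and TF (4.33 and 4.50) lay below the array medians. Whether these signals exceeded background is not known. The duodenal ferric reductase CYBRD1, which acts at the step before iron import in the gut, differed by -0.06 (standard error 0.080). In this list 4 of 10 genes (40.0%) had groups that did not overlap, against 12.7% of all transcript clusters, 2 of them higher and 2 lower.

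The measured genes listed for storage and intracellular chaperones of iron varied little. The ferritin subunits FTH1 and FTL, which store iron in the cell, were not analysed here. None of the 7 measured genes passed or reached an unadjusted p under 0.05 in limma, against 7.39% of all transcript clusters at that p. Differences ran from -0.13 to 0.08 with a median of -0.06. PCBP4 and PCBP3, of the poly(C)-binding proteins whose relatives PCBP1 and PCBP2 deliver iron to ferritin, differed by -0.13 each. Mitochondrial ferritin (FTMT) differed by 0.08, from a level near the lower quartile of the arrays, so whether it exceeded background is not known. NCOA4, the receptor that directs ferritin to lysosomes, differed by -0.06 (standard error 0.081).

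**Figure D2:**
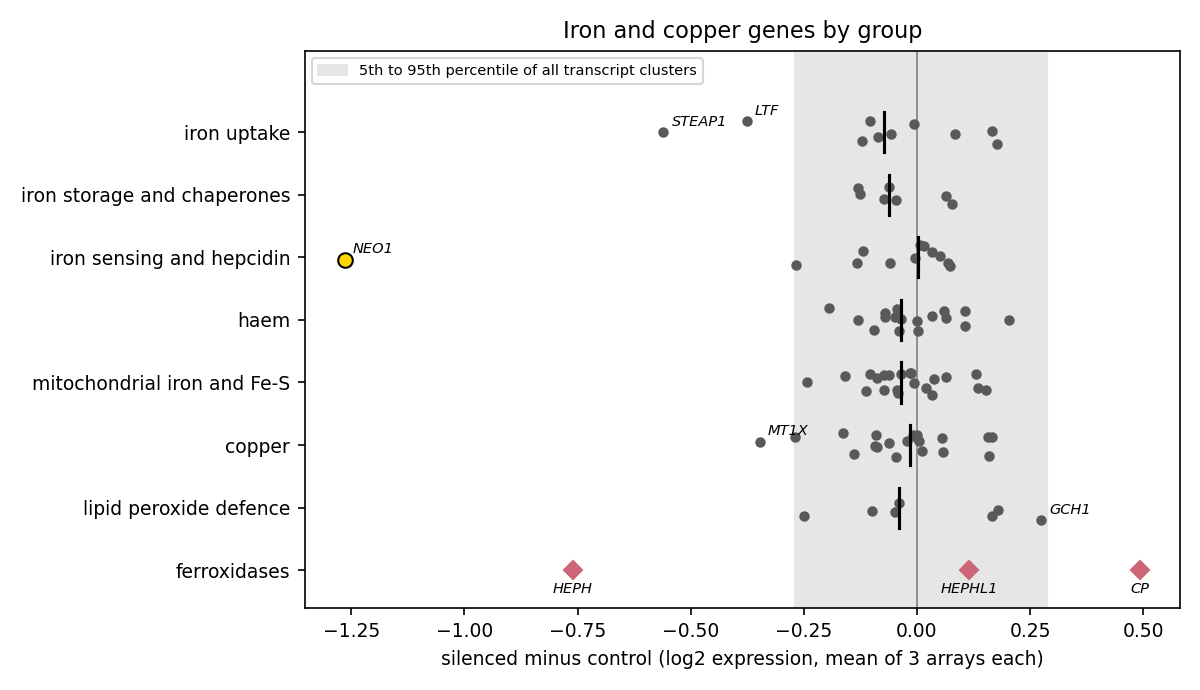
Difference of silenced against control cells (log2 expression, horizontal axis) for the measured genes of each list (grey points, vertical bars at the list medians) and for the 3 ferroxidases (red diamonds), with the 5th to 95th percentile of all transcript clusters shaded (-0.27 to 0.29). NEO1, in yellow, is the only listed gene past an adjusted p of 0.05. HEPH lies below the shaded range at -0.76. CP lies above it at 0.49, but its groups overlapped and it did not pass.

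Haem genes and genes of mitochondrial iron or iron-sulphur clusters gave 0 of 17 and 0 of 21 past the limma test. Against 7.39% of all transcript clusters, both lists held 0 genes at an unadjusted p under 0.05. Their medians were -0.04 and -0.04. In haem metabolism the largest differences were 0.20 for PPOX and -0.19 for UROD, both enzymes of haem synthesis, and -0.13 for the haem scavenger hemopexin (HPX). The haem-degrading enzyme HMOX1, which responds to oxidative stress, differed by -0.05 (standard error 0.13, adjusted p = 0.972 from limma). In the list of mitochondrial iron and iron-sulphur clusters, the iron-sulphur protein CISD3 differed by -0.24. The co-chaperone HSCB differed by -0.16 and the cluster assembly factor NUBP1 by 0.15.

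Copper handling was listed because ferroxidases need copper to be active. None of its 20 measured genes passed in limma (smallest adjusted p = 0.299). At an unadjusted p under 0.05 there were 2 (10%), against 7.39% of all transcript clusters. The metallothionein MT1X, which binds zinc and copper, held 10.50, 10.41 and 10.48 in control arrays 1, 2 and 2d, and 10.04, 10.15 and 10.17 in the silenced arrays. The groups did not overlap, with a difference of -0.35 (adjusted p = 0.299 and a standard error of 0.080 from limma). The metallothionein MT2A differed by -0.09, MT1E by -0.14 and MT1F by 0.16. The copper enzyme tyrosinase (TYR), a pigment cell gene at a low level here, differed by -0.27, and SCO1, a copper chaperone of cytochrome c oxidase, by 0.17. ATP7A, which loads copper into ferroxidases in the secretory pathway, was not analysed here.

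Lipid peroxides are the damage through which iron drives ferroptosis. Among 7 measured genes of their formation and of the defence against them, none passed in limma. Against 7.39% of all transcript clusters, 1 of the 7 genes (14.3%) had an unadjusted p under 0.05. This was GCH1, the first enzyme of tetrahydrobiopterin synthesis, with values of 7.17 to 7.20 in the control arrays and 7.44 to 7.47 in the silenced arrays. Its difference of 0.27 had a standard error of 0.072 (adjusted p = 0.396 from limma). GPX4, the enzyme that reduces lipid peroxides, differed by -0.25 and ACSL4, which supplies polyunsaturated acyl chains, by 0.18 (adjusted p = 0.738 and 0.676 from limma).

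HEPH lies on chromosome X, and its 10 nearest measured genes on either side, in the order of RefSeq on GRCh38.p14, were compared in the same fit. None of these 20 neighbours passed (smallest adjusted p = 0.488 from limma). EDA2R and ZC3H12B, 2 of the 20, had an unadjusted p under 0.05, against 7.39% of all transcript clusters. The median difference of the 20 neighbours was 0.03, with 12 above 0 and 8 below. EDA2R, the receptor of an ectodysplasin isoform and the next measured gene after HEPH, held 4.92, 4.99 and 5.01 in control arrays 1, 2 and 2d, and 4.75, 4.43 and 4.70 in the silenced arrays. All silenced arrays lay below the control arrays, with a difference of -0.35 (standard error 0.11, adjusted p = 0.488 from limma). On the other side, VSIG4, a complement receptor of macrophages, differed by 0.05, the microRNA gene MIR223 by 0.02 and the membrane linker moesin (MSN) by -0.16. ZC3H12B, 6 measured genes before HEPH, had the highest difference of 0.38 (adjusted p = 0.651 from limma). Groups did not overlap for 3 of the 20 neighbours (15%), 2 higher and 1 lower, against 12.7% of all transcript clusters.

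**Figure D3:**
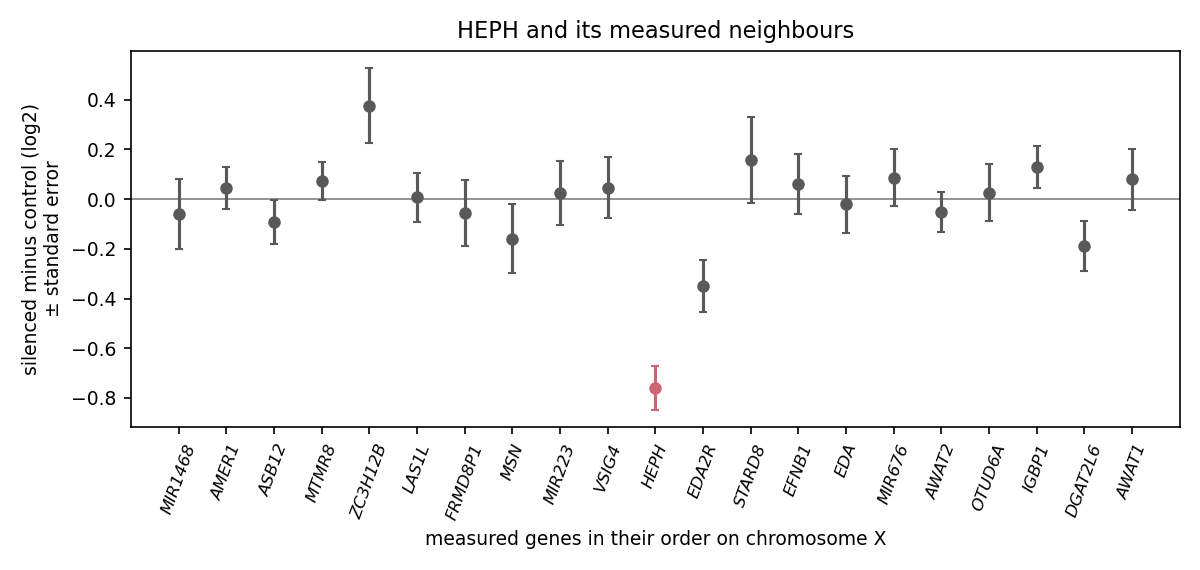
Difference of silenced against control cells (log2 expression, vertical axis, ± standard error from limma) for HEPH (red) and its 10 nearest measured genes on each side (grey), in their order along chromosome X and not to distance. HEPH lies at -0.76, while its neighbours lie between -0.35 (EDA2R) and 0.38 (ZC3H12B).

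The genes whose values over the 6 arrays were most like those of HEPH were found by Pearson's r with HEPH over the brightest transcript cluster of each of 14883 other genes. TSPAN7, a tetraspanin gene that also lies on chromosome X, came first with r = 0.9993. The study also named TSPAN7 as down-regulated and listed qRT-PCR primers for it. It reported an association of TSPAN7 with spinophilin expression in breast cancer patients of The Cancer Genome Atlas. TSPAN7 held 6.48, 6.29 and 6.25 in control arrays 1, 2 and 2d, and 4.94, 4.83 and 5.14 in the silenced arrays. Both genes were thus highest in control array 1 and lowest in silenced array 2, and the difference of TSPAN7 was -1.37 against -0.76 for HEPH. The zinc finger gene ZNF234 (r = 0.9953, difference -0.43), the transmembrane protein gene TMEM184B (0.9943, -0.23), the podoplanin gene PDPN (0.9938, -0.27), WDR7, which encodes a partner of the vacuolar proton pump (0.9936, -0.32), and C18orf54 (0.9934, -0.24) followed. No gene of the iron and copper lists was among these 6. Nothing is read from this, since only 94 of the 14883 compared genes were on the lists. An r above 0.9 was found for 255 genes and one below -0.9 for 204, and over 6 arrays in 2 groups r mostly measures the difference between the groups. With the group means taken out, r with HEPH was 0.978 for TSPAN7 and 0.842 to 0.960 for the other 5 genes. These values describe genes picked for their likeness on the same arrays, which share background correction and normalization.

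**Figure D4:**
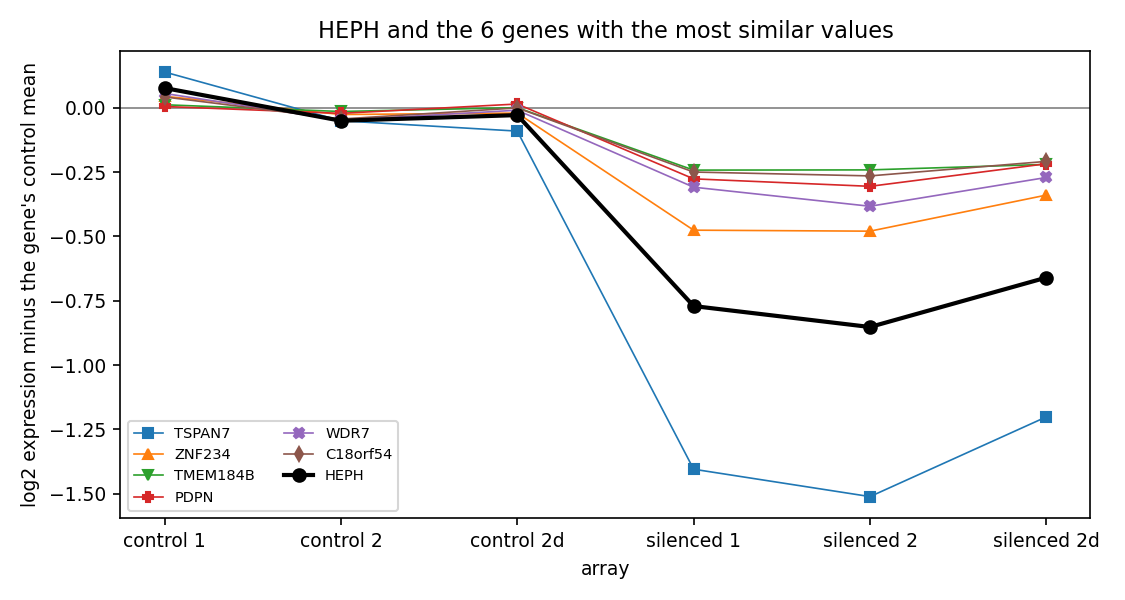
Log2 expression minus each gene's own control mean (vertical axis) on the 6 arrays (horizontal axis) for HEPH (black) and the 6 genes with the highest Pearson's r with it, where lines join the values of 1 gene. All 7 genes lie lower on the silenced arrays, with TSPAN7 showing a larger difference (-1.37) than HEPH (-0.76) and the other 5 genes smaller ones (-0.43 to -0.23).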

How the data were processed

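Total RNA of 6 SUM159 samples was amplified linearly (NuGEN Applause), and the authors processed the arrays in Partek 6.6 by RMA with background correction, quantile normalization across arrays, median polish and a log transform. The deposited values were read as log2 expression, because the highest (13.7) exceeds what natural or common logs of a scanner value can reach. Quantile normalization removes differences in total RNA, and background correction compresses differences of dim genes. The array annotation comes without an assembly name in the sources used here. Of 53617 transcript clusters, 16098 had a symbol, updated through RefSeq (GRCh38.p14). A gene with several (779 genes) was represented by the brightest by mean of the 6 arrays.

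Silencing was the only term of a linear model fitted in limma 3.58.1 (R 4.3.3) by lmFit and eBayes over all transcript clusters, with Benjamini-Hochberg adjustment and a threshold of 0.05. The methods name a two-way ANOVA whose second factor is not stated; an unmoderated linear model was an alternative. An exact permutation test with 3 against 3 arrays cannot give a p under 0.1. The fit was tested on simulated data. Members and lists were chosen with earlier results of these data known. Named genes are the members, each list's called genes and up to 3 others with the largest difference, the nearest neighbours and the 6 most similar genes; HAMP, HJV, FBXL5, CYBRD1, NCOA4, HMOX1, FLVCR1, ATOX1, MT2A, MT1E, MT1F and ZC3H12B were named after their values were seen. Precision is limited by the number of arrays.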

Additional observations from a re-analysis of the deposited data

How the results depend on the processing

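Under the 12 alternatives run, the HEPH difference ranged from -0.81 to -0.72 on the log2 scale. It was -0.78 when arrays 2 and 2d were averaged. Its direction could not change on leaving out or averaging arrays, since every silenced array lay below every control array. The choice of the dimmest transcript cluster changed nothing, because HEPH has a single one. HEPHL1 and CP did not pass under any of 14 alternatives and could not be tested once dim transcript clusters were removed. The count of wider iron and copper genes that passed, 1, was 0 with arrays 2 and 2d averaged and 0 in the unmoderated test, and 0 to 1 when 1 array was left out. The count over all transcript clusters, 110 (91 higher and 19 lower), became 12 with averaging (0 lower), 188 without dim transcript clusters (49 lower), 0 in the unmoderated test and 15 to 48 when 1 array was left out (15, 17 and 34 without control array 1, 2 and 2d, and 24, 21 and 48 without silenced array 1, 2 and 2d). The lower ones among them were 0, 0 and 3, and 1, 0 and 13, in the same order. Averaging and leaving out arrays test fewer samples; the cause of the other changes was not tested.

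Deviations of arrays with the same label from their group means had correlations of 0.012, 0.000016 and 0.093 for labels 1, 2 and 2d. Between arrays of different labels the correlations ran from -0.068 to 0.062. The value for label 2d was thus the highest of all. Since all were small, the labels were not taken as pairs. With the replicate label as a block, the HEPH difference stayed at -0.76, as it must when every label is present in each group. This replicate block fit passed 1 wider gene and moved the count over all transcript clusters to 40 (1 lower).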
